A study of Mus musculus with 49 samples.

Results

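Vimentin, galectin-1, γ-actin, a set of actin cross-linking and actin-coating proteins, and the membrane linkers ezrin and moesin were followed here through hepatocyte culture. The 10 genes, Vim, Lgals1, Actg1, Actn1, Flna, Tpm1, Tagln2, Tagln, Ezr and Msn, were taken by name, as the rows whose Ensembl identifier maps to these symbols, and are 10 of the 46078 identifiers in the deposited table. The data are 49 bulk libraries of 16 conditions made by CEL-Seq2, a protocol that reads the 3′ end of each transcript and counts unique molecular identifiers (UMIs). All mice were wild type and of the C57BL/6J strain. Hepatocytes came from collagenase-treated livers of 10 week-old adults, with other liver cells removed by spinning, and were sampled fresh (FH, 3 libraries) or as monolayers (Hep) after 3 h and after 1, 2, 4, 7 and 14 d of culture (3 each) in medium with EGF at 20 ng/mL. Further hepatocytes were kept for 7 d with 0.3 µM verteporfin, an inhibitor of Yap transcriptional activity, or with its solvent DMSO (2 each). Dedifferentiated hepatocytes expanded in monolayer (dediHep, 5), dediHep aggregates in ultra-low attachment wells (3), spherical organoids grown from dediHeps in Matrigel (dediHep-SO, 3) and budding organoids from dediHeps given Cdx2 by retrovirus (dediHep-BO, 3) were compared with SOs of fetal intestinal progenitor cells of E13.5 embryos (FIPC-SO, 3) and BOs of intestinal stem cells from small intestine crypts of 10 week-old adults (ISC-BO, 4). Chemically induced liver progenitors (CLiP, 3) are hepatocytes cultured in monolayer with Y-27632, A-83-01 and CHIR99021.

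Vimentin is an intermediate filament protein of mesenchymal cells, and epithelial cells in tissue usually lack it. Actin filaments are shaped by proteins that cross-link them (α-actinin-1, filamin A), lie along them (tropomyosin) or bundle them (transgelins), and the ERM proteins ezrin, radixin and moesin tie them to the plasma membrane. In the liver, ezrin is known from bile duct cells, radixin from the bile canaliculi of hepatocytes, and moesin from endothelial and other non-parenchymal cells.

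Levels are UMI counts per 1e+06 counts of a library (CPM), scaled by trimmed mean of M-values (TMM) factors over all libraries. Libraries held 861047 to 3872936 counts, so that 3 counts correspond to 0.775 to 3.48 CPM. A gene was called when the quasi-likelihood test of edgeR gave a false discovery rate (FDR, the Benjamini-Hochberg adjusted p over all genes tested) under 0.1 and a log2 fold change over 2 in size, and a gene is said to have risen or fallen only if called. Hepatocyte markers (10 genes summed) lay at 22900 to 27800 CPM in FH, at 1650 to 2220 CPM in Hep 14 d and at 1090 to 4770 CPM in dediHep, and intestinal markers (10 genes) at 3490 to 4620 CPM in the BOs. Markers of stellate cells and fibroblasts (12 genes, Acta2 and Des among them) summed to 88.8 to 225 CPM in FH, 75.7 to 352 CPM in Hep 14 d, 0.503 to 2.8 CPM in dediHep and 4.59 to 301 CPM in dediHep-BO. Acta2 and Des themselves had means of 0.787 and 1.3 CPM in FH, and of 96.9 and 5.15 CPM in Hep 14 d. In dediHep-BO their means were 3.57 and 0 CPM. Other genes of that list thus made up nearly all of the FH sums. Mesothelial markers (5 genes) were at 0 in the 3 FH libraries and at 438 to 1320 CPM in dediHep, nearly all of it Msln. Bulk libraries cannot tell fewer cells of a type from less RNA per cell, and this holds for every level given here. Nothing in the labels says which libraries came from separate animals or cultures, except where culture labels are named, so p-values measure the spread between these libraries.

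**Figure D1:**
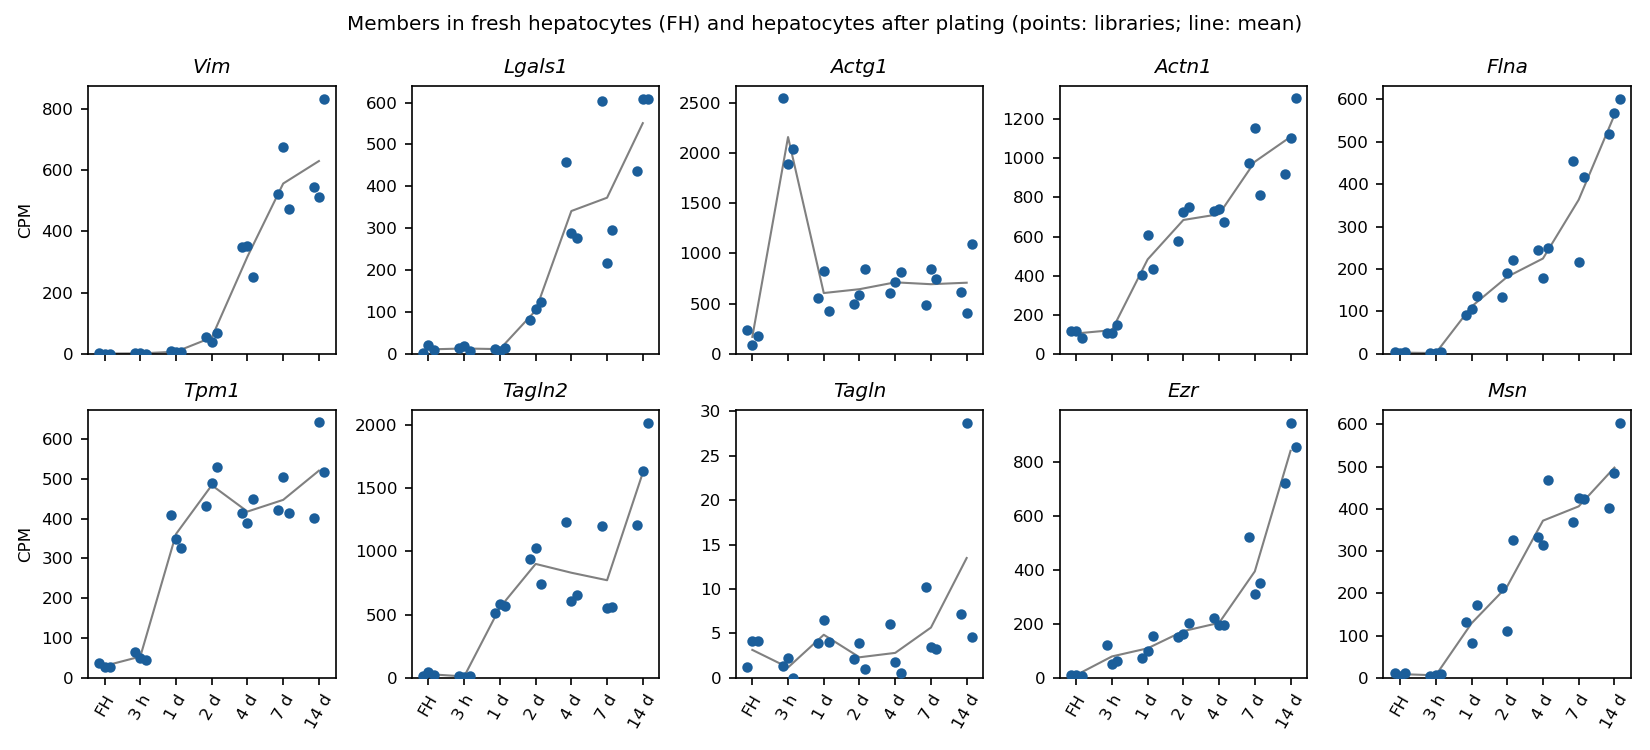
Levels (CPM, vertical axes, a different scale in each panel) of the 10 genes in fresh hepatocytes (FH) and hepatocytes 3 h to 14 d after plating. Each point is 1 library and the line joins the means of 3. Actg1 peaks at 3 h (mean 2157 CPM), Flna, Tpm1, Actn1, Tagln2 and Msn climb by 1 d, Lgals1 stays near its FH level at 1 d, Vim is at 6.106 to 8.674 CPM there, and both have most of their climb from 2 d on.

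In the hours after plating the response was narrow. Of the 10 genes, 2 rose by 3 h, where 3.06% of all 12443 genes tested rose: Actg1, the cytoplasmic γ-actin gene, and Ezr, the ezrin gene. The rest were not called, with FDRs of 0.0556 to 0.856. Those with an FDR under 0.1 fell short of the fold threshold. Actg1 stood at 238.4, 86.18 and 182.8 CPM in the 3 FH libraries and at 2542, 1890 and 2039 CPM in the 3 libraries of 3 h. The groups were far apart, a 12.8-fold difference (log2 fold change 3.65, SE 0.423, edgeR FDR 8.07e-06). Ezr stood at 10.62, 10.94 and 8.261 CPM in FH and at 122.3, 50.76 and 63.87 CPM at 3 h, again with no overlap (7.95-fold, log2 fold change 2.96, SE 0.396, edgeR FDR 4.63e-05). Tagln2 was lower at 3 h (10.38 ± 4.38 CPM, SD, n = 3) than in FH (28.71 ± 18.3 CPM), with a log2 fold change of -1.48 and an edgeR FDR of 0.0563, short of the fold threshold. Actb, the other cytoplasmic actin, went from 1052 ± 561.9 to 2095 ± 460.6 CPM over the same hours (log2 fold change 0.96, edgeR FDR 0.1085).

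Actg1 (chr11:120345690-120348542, minus strand, GRCm38) was also the only 1 of the 8 genes searched whose promoter letters held a CArG box. This is the motif of serum response factor, a regulator of actin genes. The search took the window from 250 bases before to 50 bases after the gene start in RefSeq (GRCm38.p6), on both strands, for 8 of the 10 genes, since Tagln and Lgals1 had no entry. The stretch printed lies at chr11:120348566-120348595 on the minus strand, and the match, its middle 10 bases, starts 90 bases before the gene start (position -90). It is shown because it is the motif shared with other actin genes, with the motif in capitals:
Actg1: ggaaagatcgCCATATATGGacatgttctg
Among all RefSeq promoter windows, 1.63% (535 of 32851) held the motif. Counted by gene it was 1.81% (488 of 27025). Of the 90 other cytoskeleton genes with a window 9 had it, Acta1, Actc1, Cnn2, Myl9, Srf, Vcl and Vil1 among them. A match of letters is a description of the window and not evidence of binding.

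By 1 d Flna, Tpm1, Actn1, Tagln2, Ezr, Msn and Vim had risen, Vim to under 9 CPM, and Actg1, Tagln and Lgals1 were not called. Of the 10 genes, 7 rose at 1 d (6.57% of all genes tested), 8 at 2 d (9.21%), 9 at 4 d (11.4%), 8 at 7 d (13.2%) and all 10 at 14 d (14.1%), and none fell at any of these times. Of all genes tested, 10.9%, 12.1%, 12.4%, 12.8% and 15.3% fell at the 5 times in turn. The median log2 fold change against FH over the 10 genes went from 0.236 at 3 h to 2.9 at 1 d and 5.74 at 14 d, and over all genes tested it was -0.0718, -0.0301 and 0.0371. These comparisons share the 3 FH libraries.

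Among the cross-linkers, Flna (chrX:74223461-74249820), which joins actin filaments into networks, had the steepest climb. It lay at 3.54, 1.368 and 4.131 CPM in FH and at 1.274, 1.103 and 3.484 CPM at 3 h. At 1 d it stood at 91.94, 104.9 and 137.4 CPM, and at 14 d at 518.8, 567.5 and 601 CPM. The step from 3 h to 1 d separated all libraries, and Flna ended 187-fold above FH (log2 fold change 7.46, edgeR FDR 1.77e-11). Actn1 (chr12:80167547-80260371), whose protein cross-links actin in stress fibres, started far higher in FH (116.8, 114.9 and 81.58 CPM) and reached 405.1, 610 and 434 CPM at 1 d and 919.1, 1101 and 1308 CPM at 14 d. Its rise was 4.63-fold at 1 d (edgeR FDR 3.6e-06) and 10.6-fold at 14 d (edgeR FDR 2.3e-09), and the call at 1 d rests on the fold threshold: without FH replicate 3 the log2 fold change was 1.98, and without Hep 1 d replicate 2 it was 1.91.

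Among the proteins that lie along or bundle filaments, Tpm1 was close to its later level by 1 d and Tagln2 was not. Tpm1 (chr9:67022590-67049406), a tropomyosin gene, stood at 36.58, 25.99 and 26.85 CPM in FH, 409.8, 347.4 and 326.2 CPM at 1 d and 402.4, 642 and 516.2 CPM at 14 d. Its log2 fold change against FH was 3.50 at 1 d (SE 0.28, edgeR FDR 5.96e-09) and 4.11 at 14 d (SE 0.286, edgeR FDR 1e-10). Tagln2 (chr1:172500047-172507380), the transgelin paralog found outside smooth muscle, went from 14.16, 49.25 and 22.72 CPM in FH to 515.2, 581.8 and 570.9 CPM at 1 d and 1209, 1638 and 2019 CPM at 14 d. It rose 19.4-fold by 1 d (edgeR FDR 3.95e-07) and 56.5-fold by 14 d (edgeR FDR 2.01e-09).

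Tagln (chr9:45929619-45936058), the smooth muscle transgelin, kept apart from the others. It gave 225 counts in all 49 libraries against 82226 for Tagln2, and in FH it lay at 1.18, 4.104 and 4.131 CPM. Its level of 13.49 ± 13.26 CPM (SD, n = 3) at 14 d came mostly from replicate 2 with 28.73 CPM, beside 7.141 and 4.588 CPM. The call at 14 d (log2 fold change 2.07, SE 0.849, edgeR FDR 0.0486) was lost without that library (1.02, FDR 0.381) and without FH replicate 1 (1.68, FDR 0.163). Replicate 2 was also the library with the highest stellate and fibroblast sum of the 3 (352 CPM, beside 192 and 75.7 CPM), and the part of such cells in the Tagln level was not tested. Tagln overlaps Pcsk7 on the opposite strand, which covers its last 500 bases and had 2990 counts, and whether reads were counted by strand is not given in the sources used here.

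Both ERM members had risen by 1 d and stood higher still at 14 d. Ezr (chr17:6738041-6782784), after its early rise, stood at 72.86, 100.8 and 153.7 CPM at 1 d, 220.9, 194.8 and 194.3 CPM at 4 d and 721.3, 945.7 and 855.7 CPM at 14 d. It was 84.6-fold above FH at 14 d (log2 fold change 6.39, SE 0.426, edgeR FDR 5.27e-11). Msn (chrX:96096042-96168552) stood at 10.62, 4.104 and 11.36 CPM in FH and 3.822, 5.517 and 8.129 CPM at 3 h. It then reached 131.8, 82.68 and 172.5 CPM at 1 d and 402.8, 486 and 604.5 CPM at 14 d. Unlike Ezr it overlapped FH at 3 h, and it ended 57.2-fold above FH (log2 fold change 5.79, SE 0.473, edgeR FDR 1.21e-09).

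Vim (chr2:13573927-13582826) and Lgals1 (chr15:78926725-78930465) had most of their climb after 1 d. Vim gave 3 counts in replicate 1 of FH and none in the others (3.54, 0 and 0 CPM), then 1.274, 2.207 and 1.161 CPM at 3 h and 8.674, 6.554 and 6.106 CPM at 1 d. It stood at 54.12, 39.21 and 67.18 CPM at 2 d, 349.1, 353.6 and 250.3 CPM at 4 d, 522.1, 673.8 and 472.2 CPM at 7 d and 544.9, 510.7 and 832.7 CPM at 14 d. From 1 d to 7 d, no library of a time point overlapped those of the time before. With only 3 counts in FH, the ratio of pooled counts is uncertain: it was 6.11 at 1 d (95% counting interval 1.96 to 30.7), 44.6 at 2 d (15.1 to 217) and 493 at 14 d (169 to 2390). The call at 1 d (log2 fold change 2.44, SE 0.689, edgeR FDR 0.00869) was lost without FH replicate 2 (1.99) or FH replicate 3 (1.82), and in a single fit of all 49 libraries (2.54, FDR 0.12). Lgals1, the gene of a β-galactoside-binding lectin, lay at 1.18, 20.52 and 10.33 CPM in FH and at 11.28, 8.066 and 14.76 CPM at 1 d, within the FH range (log2 fold change 0.02, SE 0.564, edgeR FDR 0.988). It then separated from FH with 80.98, 106 and 123.6 CPM at 2 d (9.7-fold, edgeR FDR 6.29e-05) and reached 435.6, 609.2 and 607.9 CPM at 14 d (51.6-fold, edgeR FDR 3.81e-08).

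The comparison of Hep 14 d with Hep 1 d, groups of the same fit as FH, had Vim and Lgals1 at its head. Of the 10 genes, 5 rose between these times, where 8.64% of all genes tested rose. Vim rose 88.5-fold (log2 fold change 6.54, SE 0.46, edgeR FDR 3.41e-10) and Lgals1 48.5-fold (5.67, SE 0.555, edgeR FDR 5.47e-08). Ezr rose 7.71-fold and Flna 5.05-fold. Msn rose 3.86-fold (2.04, SE 0.373, edgeR FDR 0.000217), a call at the threshold that was lost without Hep 1 d replicate 2 (1.80) or Hep 14 d replicate 3 (1.85). Tagln2 (2.92-fold, edgeR FDR 0.00343) and Actn1 (2.3-fold, edgeR FDR 0.000768) were higher but under the fold threshold. Tpm1 (1.44-fold, edgeR FDR 0.0782) and Actg1 (1.17-fold, edgeR FDR 0.601, 95% interval of the log2 difference -0.427 to 1.06) differed least.

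Non-parenchymal cells also express Vim, Lgals1, Msn and Tagln, so the marker sums stand beside these levels. At 14 d, replicate 3 had the highest Vim level (832.7 CPM) and the lowest sums for stellate cells and fibroblasts (75.7 CPM, beside 192 and 352 CPM) and for Kupffer cells and leukocytes (14.9 CPM, beside 239 and 259 CPM). Fitted with replicate 3 as the sole library of 14 d, the log2 fold change against FH was 9.51 for Vim and 0.66 for Tagln. That fit was chosen after the marker sums were seen, and the part of non-parenchymal cells in these levels was not tested. At 1 d, when Vim was at 6.106 to 8.674 CPM, the stellate and fibroblast sums were 4.07 to 36.3 CPM.

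Once expanded as dediHeps, hepatocyte-derived cells still held these genes far above the fresh cells. Of the 9 genes that passed the low-count filter, all 9 were higher than in FH, where 13.1% of all 11276 genes tested rose, and Tagln was not tested. Ezr, at 1017, 719.8, 948.4, 843.1 and 930.9 CPM, had the tightest spread of the called genes around its mean of 891.8 ± 114.4 CPM (SD, n = 5) and was 89.7-fold above FH (log2 fold change 6.37, SE 0.399, edgeR FDR 8.24e-07). Flna was 97.4-fold higher (300.9, 257.9, 196.1, 398.7 and 313.4 CPM; edgeR FDR 3.93e-06) and Tagln2 31.8-fold higher (548.1, 1005, 679.1, 1337 and 998.1 CPM; edgeR FDR 4.03e-05). Msn spread widely, with 403.2, 242.3, 64.37, 149.2 and 198.9 CPM, all above FH (24.3-fold, edgeR FDR 0.000408). Lgals1 (15.6-fold), Tpm1 (9.57-fold), Actn1 (5.36-fold) and Actg1 (4.96-fold) also rose, Actg1 not without FH replicate 2 (log2 fold change 1.89). Vim lay at 564.9, 233.7, 229.4, 128.3 and 183.2 CPM, all far above FH, and the pooled count ratio was 213 (95% counting interval 72.9 to 1030). In the same 5 libraries the 12 stellate and fibroblast markers summed to at most 2.8 CPM, and Col1a2, Col3a1, Lum, Pdgfrb, Lrat and Thy1 were at 0. Tagln was at 0 to 0.5593 CPM, at or below 3 counts per library.

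Against Hep 14 d, the last time point of the first culture, none of the 9 genes tested was called in edgeR or DESeq2 (background 5.93% of 11167 genes called), and 7 had an unadjusted p under 0.05 (28.6% of genes). Tagln, which the filter left out, was called lower with no filter (edgeR FDR 8.89e-09) and in the fit of all 49 libraries (edgeR FDR 5.44e-05). Lgals1 was lowest relative to 14 d, at 94.52 to 232.1 CPM against 435.6 to 609.2 CPM with no overlap (log2 fold change -1.76, SE 0.298, edgeR FDR 0.00614). Flna was also lower without overlap (-0.98, edgeR FDR 0.0369), as were Tpm1 (-0.90, FDR 0.0737) and Actn1 (-1.02, FDR 0.0813). Vim (-1.26, edgeR FDR 0.0897) and Msn (-1.27, FDR 0.1) overlapped between the groups. Ezr was the gene nearest to its 14 d level, with a log2 difference of 0.05 and a 95% interval of -0.394 to 0.499.

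**Figure D2:**
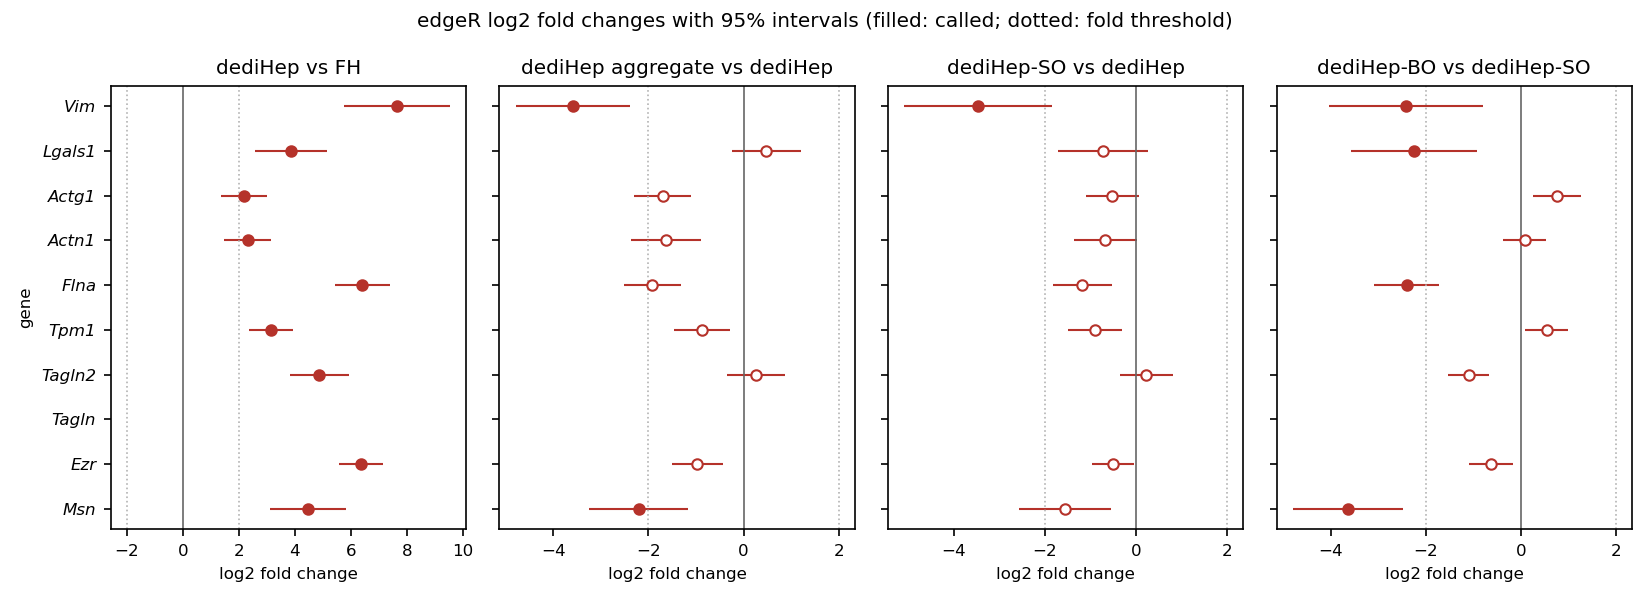
Log2 fold changes (horizontal axis) with 95% intervals from edgeR for the 9 genes tested, in 4 comparisons. Filled points are called genes (FDR under 0.1, beyond the dotted lines at a log2 fold change of 2). All 9 are called against FH, Vim and Msn in aggregates, Vim in dediHep-SO, and Vim, Lgals1, Flna and Msn in dediHep-BO.

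When dediHeps were aggregated, 2 of the 9 genes tested fell (5.11% of 11265 genes fell), none rose (4.39% of genes rose), and 7 of the 9 were lower at an FDR under 0.1 (12.2% of genes). Culture labels tie the aggregates to dediHep replicates 1, 2 and 4. Vim stood at 8.078 CPM in the aggregate of the culture that had 564.9 CPM, at 33.45 CPM where the monolayer had 233.7 CPM and at 23.93 CPM where it had 128.3 CPM. It was lower in every pair, and 12.3-fold lower between the group means (log2 fold change -3.59, SE 0.614, edgeR FDR 0.00496). Msn followed the same pairs with 33.93, 60.38 and 42.26 CPM against 403.2, 242.3 and 149.2 CPM (4.65-fold lower, log2 fold change -2.20, SE 0.53, edgeR FDR 0.0228). Its call was lost without aggregate replicate 1 (-2.05, FDR 0.11), aggregate replicate 3 (-2.15, FDR 0.1) or dediHep replicate 1 (-1.83).

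The actin network genes were lower in aggregates by less. Flna stood at 67.85, 66.46 and 96.74 CPM in aggregates, below all dediHep libraries (3.81-fold, log2 fold change -1.92, SE 0.306, edgeR FDR 0.00352). With the culture as a block it passed the fold threshold (-2.03, FDR 0.00404), which made 3 genes called. Actg1 (195.5, 245 and 332 CPM, 3.26-fold lower, edgeR FDR 0.00641) and Actn1 (197.1, 198.5 and 142.1 CPM, 3.12-fold lower, edgeR FDR 0.0184) also lay below every dediHep library. Ezr was 1.96-fold lower (365.1, 647.2 and 351.8 CPM, edgeR FDR 0.0429), but the FDR was 0.117 with the culture block. Tagln2 and Lgals1 went the other way, without passing the test: Tagln2 at 863.5, 977.3 and 1411 CPM (log2 fold change 0.26, edgeR FDR 0.587) and Lgals1 at 118.7, 261.9 and 314.7 CPM (0.48, edgeR FDR 0.389), both overlapping dediHep.

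Set against FH, the aggregates remained high for 7 of the 9 genes (6.78% of 9544 genes rose). The exceptions were Actn1 (179.2 ± 32.17 against 104.4 ± 19.81 CPM, SD, n = 3 each; log2 fold change 0.68, edgeR FDR 0.183) and Actg1 (0.50, edgeR FDR 0.413). Ezr was 45.7-fold and Tagln2 37.8-fold above FH. The Vim count ratio to FH was 20.7 (95% counting interval 6.92 to 101), and Msn was 5.24-fold above FH (edgeR FDR 0.00592), a call lost without FH replicate 2 (log2 fold change 1.94). In the same aggregates the hepatocyte markers summed to 9050 to 13600 CPM, between dediHep and FH.

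In spherical organoids Vim alone fell. Of the 9 genes tested 1 fell from dediHep to dediHep-SO (4.65% of 11470 genes fell). Vim lay at 39.84, 31.26 and 1.851 CPM, below every dediHep library (11-fold, log2 fold change -3.47, SE 0.826, edgeR FDR 0.0206), with replicate 3 far under the others. The 3 dediHep-SO libraries carry the culture labels of dediHep replicates 1, 3 and 2. Flna (161.3, 145.9 and 82.37 CPM, log2 fold change -1.18, edgeR FDR 0.0424) and Tpm1 (144, 165.7 and 152.2 CPM, -0.90, FDR 0.0821) were lower with no overlap and under the fold threshold. Msn (66.19, 58.55 and 93.01 CPM, -1.56, edgeR FDR 0.084) overlapped the lowest dediHep library. With the culture as a block Vim stayed called (-4.27, edgeR FDR 0.0119), and the FDR was 0.26 for Flna, 0.224 for Tpm1 and 0.225 for Msn. For Ezr the log2 difference was -0.51 (95% interval -0.968 to -0.0445, edgeR FDR 0.209), and for Tagln2 0.22 (-0.359 to 0.804).

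Against the fetal intestinal organoids of the same shape, dediHep-SO held more Lgals1 and Msn. These 2 of 9 genes were called higher, where 4.92% of 11608 genes were. Lgals1 stood at 157.1, 119.6 and 25.45 CPM in dediHep-SO and at 1.948, 0.7008 and 7.383 CPM in FIPC-SO (30.1-fold, log2 fold change 4.82, SE 0.843, edgeR FDR 0.00418). Msn stood at 66.19, 58.55 and 93.01 CPM against 15.19, 14.02 and 20.54 CPM (4.38-fold, log2 fold change 2.08, SE 0.331, edgeR FDR 0.00252), and fell under the fold threshold without FIPC-SO replicate 2 (1.98) or dediHep-SO replicate 3 (1.87). Vim was at 1.169, 0 and 17.33 CPM in FIPC-SO, and the groups overlapped (log2 fold change 1.90, SE 1.2, edgeR FDR 0.315). FIPC-SO replicate 3, with the highest Vim level, also had a stellate and fibroblast sum of 488 CPM, beside 12.9 and 5.96 CPM. Without it Vim was called higher in dediHep-SO (log2 fold change 5.29, FDR 0.0498), and the part of fibroblasts in its level was not tested. Ezr, Actg1, Actn1 and Tpm1 did not pass the test, and the smallest of their edgeR FDRs was 0.392, for Tpm1.

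The comparison of budding with spherical organoids split the list. The dediHep-BO libraries came from dediHeps given Cdx2 and the dediHep-SO libraries did not. In the paper, SOs were formed with Wnt3a and CHIR99021 in the medium, and BOs developed over serial passages once both were left out. Cdx2, organoid form, medium and passage thus cannot be told apart. From dediHep-SO to dediHep-BO, 4 of 9 genes fell (5.68% of 11301 genes), and 2 others were higher at an FDR under 0.1 (19.2% of genes) but under the fold threshold. Msn fell furthest, from 66.19, 58.55 and 93.01 CPM to 3.881, 11.91 and 1.253 CPM (12.8-fold, log2 fold change -3.64, SE 0.595, edgeR FDR 0.00185). Flna fell 5.44-fold to 20.38, 29.99 and 21.3 CPM (-2.41, SE 0.344, edgeR FDR 0.000861). Both were separated from every SO library.

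Vim and Lgals1 fell less surely. Vim stood at 2.426, 4.851 and 5.847 CPM in dediHep-BO, above the lowest SO library (-2.42, SE 0.823, edgeR FDR 0.0509), and Lgals1 at 11.64, 11.02 and 38.84 CPM, also overlapping (-2.25, SE 0.675, edgeR FDR 0.0331). Leaving out any of BO replicates 1 and 2 or SO replicates 1 and 2 ended both calls, with FDRs of 0.137 to 0.189 for Vim and 0.103 to 0.127 for Lgals1. Tagln2 was 2.19-fold lower (516.7, 460.8 and 483.7 CPM, edgeR FDR 0.00582). Actg1 (1007, 969.3 and 946.5 CPM, log2 fold change 0.76, edgeR FDR 0.0496) and Tpm1 (188.7, 224 and 245.6 CPM, 0.54, edgeR FDR 0.0994) were higher with no overlap. The stellate and fibroblast marker sum was 291 and 301 CPM in BO replicates 1 and 2 and 4.59 CPM in replicate 3. Vim was highest in replicate 3. Of that list, Acta2 reached 6.307 CPM at most and Des was at 0 in dediHep-BO. Other genes of the list thus made up nearly all of the higher sums. With replicate 3 as the sole BO library, in a fit chosen after the sums were seen, the log2 fold change was -5.75 for Msn and -2.56 for Flna. The part of fibroblasts in these levels was not tested.

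Compared with the organoids of adult intestine, dediHep-BO had none of the 7 tested genes called in edgeR or DESeq2 (3.05% of 11303 genes were called), and 3 had an unadjusted p under 0.05 (22.6% of genes). Msn was left out by the filter: it gave 38 counts over the dediHep-BO libraries and 0 in each of the 4 ISC-BO libraries, which makes it at least 16.7-fold higher when the ISC-BO group is set at 3 counts. Of the 38 counts 27 came from dediHep-BO replicate 2, a library with a stellate and fibroblast marker sum of 301 CPM. Without that replicate the bound was 7.32-fold. With no filter Msn was called (edgeR FDR 2.44e-06), as in the fit of all 49 libraries (edgeR FDR 0.000136). Lgals1 stood at 8.654, 10.87, 4.66 and 3.059 CPM in ISC-BO, below all dediHep-BO libraries (log2 fold change 1.63, SE 0.535, edgeR FDR 0.103). Vim was at 1.623 to 2.622 CPM in ISC-BO, overlapping dediHep-BO. For Actn1 (0.06, 95% interval -0.354 to 0.464), Tpm1 (0.10, -0.35 to 0.557) and Ezr (-0.18, -0.71 to 0.355) the log2 differences were near 0.

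Between CLiPs and dediHeps none of the 9 genes was called in edgeR or DESeq2, a count near the background of 3.04% of 11567 genes, and 2 had an unadjusted p under 0.05 (16.8% of genes). Vim stood at 144.5, 244.6 and 335.2 CPM, within the dediHep range, with a log2 difference of -0.13 (95% interval -1.1 to 0.832). For Msn the difference was 0.04 (-0.994 to 1.07) and for Flna 0.40 (-0.155 to 0.954). Ezr lay below all dediHep libraries (598.6, 528.3 and 654.9 CPM, -0.56, edgeR FDR 0.278), and Actg1 at 382.7, 660.7 and 304 CPM (-0.89, edgeR FDR 0.22). The intervals reach a log2 difference of 1 or more for most of the genes, so differences of that size are not excluded with 3 and 5 libraries.

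Verteporfin, which blocks Yap-driven transcription, was tested on 2 libraries against 2. None of the 9 genes was called in edgeR or DESeq2, as was the case for all but 0.269% of the 10400 genes tested, and 1 had an unadjusted p under 0.05 (9.24% of genes). That gene was Vim, at 172.6 and 329.9 CPM with verteporfin and 556.3 and 557.8 CPM with DMSO, a log2 fold change of -1.12 (SE 0.289, 95% interval -1.69 to -0.558, edgeR unadjusted p 0.00294, FDR 0.239). Msn, at 396.2 and 307 CPM against 473.4 and 546.6 CPM, was lower by 0.50 on the log2 scale (FDR 0.558). Lgals1, Tpm1 and Actn1 were also lower in both treated libraries, and non-overlap of 2 against 2 libraries was common, at 39.9% of all genes. Flna (0.07, 95% interval -0.451 to 0.582) and Ezr (-0.07, -0.558 to 0.419) differed least. Tagln gave 10 counts with verteporfin and 2 with DMSO, a ratio of 5.22 (95% counting interval 1.11 to 49), and was not tested.

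**Figure D3:**
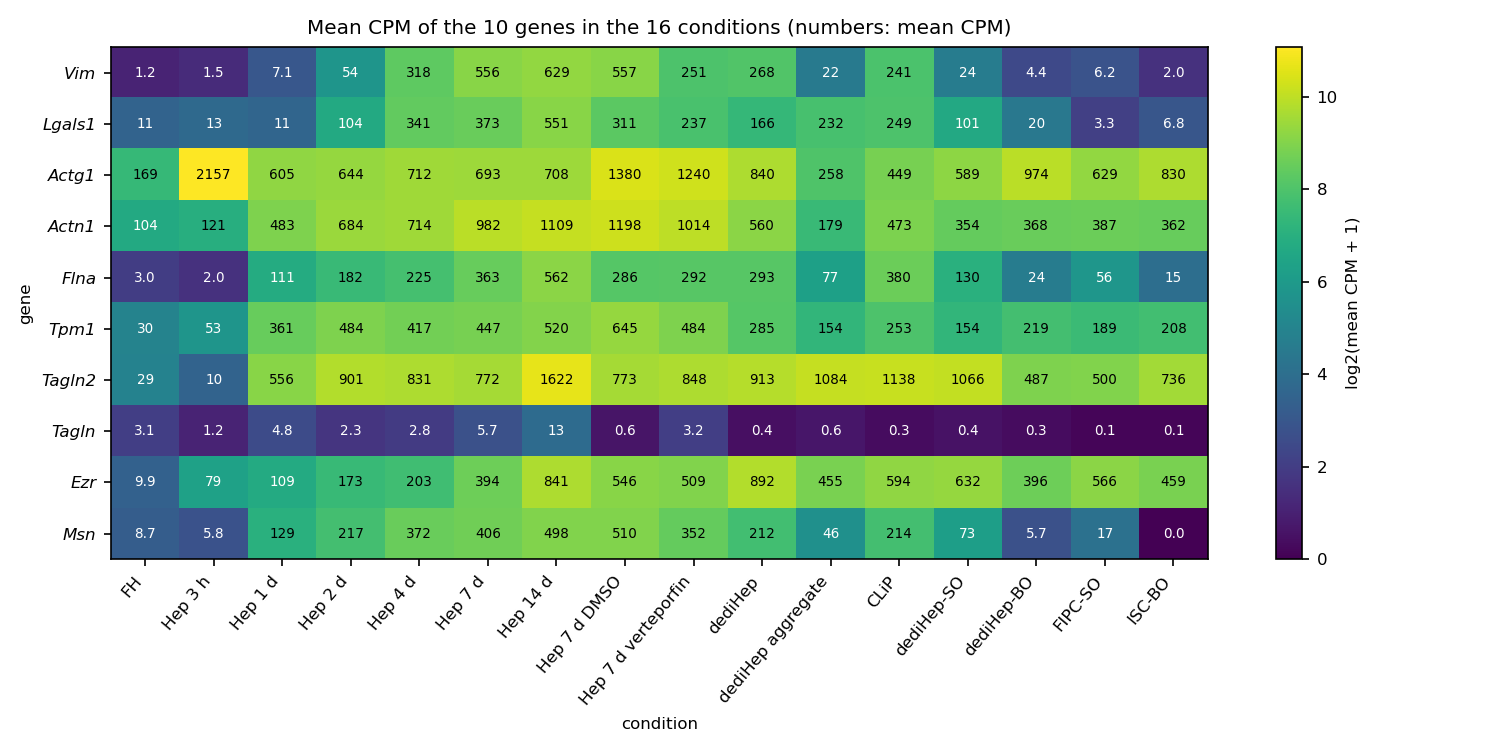
Mean level of each gene (CPM, printed in the cells) in the 16 conditions, coloured by log2(mean CPM + 1). Vim and Lgals1 are high from Hep 4 d to Hep 14 d, Actg1 has its maximum at 3 h, Tagln stays under 14 CPM throughout, and Msn drops out in the budding organoids while Ezr stays near 400 CPM or above in all conditions but FH and the first 4 d of culture.

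Ranked over all 16 conditions, Vim ran from Hep 14 d (629.4 ± 176.9 CPM, SD, n = 3), Hep 7 d with DMSO (557 CPM) and Hep 7 d (556 CPM) down through Hep 4 d, dediHep, verteporfin and CLiP (317.7 to 241.4 CPM), then Hep 2 d (53.5 CPM), dediHep-SO, aggregates, Hep 1 d, FIPC-SO, dediHep-BO, ISC-BO, Hep 3 h and FH (24.32 to 1.18 CPM). Only 2 pairs of neighbours in that order did not overlap, Hep 7 d over Hep 4 d and CLiP over Hep 2 d. The order of Ezr was another: dediHep (891.8 ± 114.4 CPM, n = 5) and Hep 14 d (840.9 CPM) led, the organoids lay at 396.3 to 631.7 CPM, and the gaps without overlap were between Hep 7 d (394.2 CPM) and Hep 4 d (203.3 CPM) and between Hep 3 h (78.98 CPM) and FH (9.94 CPM). Msn had its last places in Hep 3 h (5.823 CPM), dediHep-BO (5.681 CPM) and ISC-BO (0). Tagln2 was between 487.1 CPM (dediHep-BO) and 1622 CPM (Hep 14 d) in every condition except FH (28.71 CPM) and Hep 3 h (10.38 CPM).

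Across the 16 condition means of log2 CPM, which share libraries, scaling and the FH low point, the 45 pairs of the 10 genes had Pearson r from -0.271 (Ezr with Tagln) to 0.955 (Actn1 with Tpm1), with a median of 0.603. Vim went closest with Lgals1 (0.927), Msn (0.891) and Flna (0.883). Actg1 stood apart, with r of 0.195 to Vim, 0.0577 to Msn and -0.0492 to Tagln2. Outside the list, the genes most like Vim among 12815 were Tinagl1 and Loxl2 (0.963 each), Fut10 (0.955), F730043M19Rik (0.954) and Hdx (0.951). Loxl2, a lysyl oxidase of the matrix, was at 0.787 CPM in FH, 69.8 CPM at 14 d, 49.6 CPM in dediHep and 3.39 CPM in aggregates. The nearest gene was Timp1 for Lgals1 (0.963), Phldb2 for Msn (0.986), Prmt2 for Flna (0.979), Serpinb6a for Tagln2 (0.987), Wdr1 for Tpm1 (0.966), Tpm3-rs7 for Actn1 (0.971), Cmtr2 for Ezr (0.931), Myc for Actg1 (0.893) and C1qc, a macrophage gene, for Tagln (0.862).

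**Figure D4:**
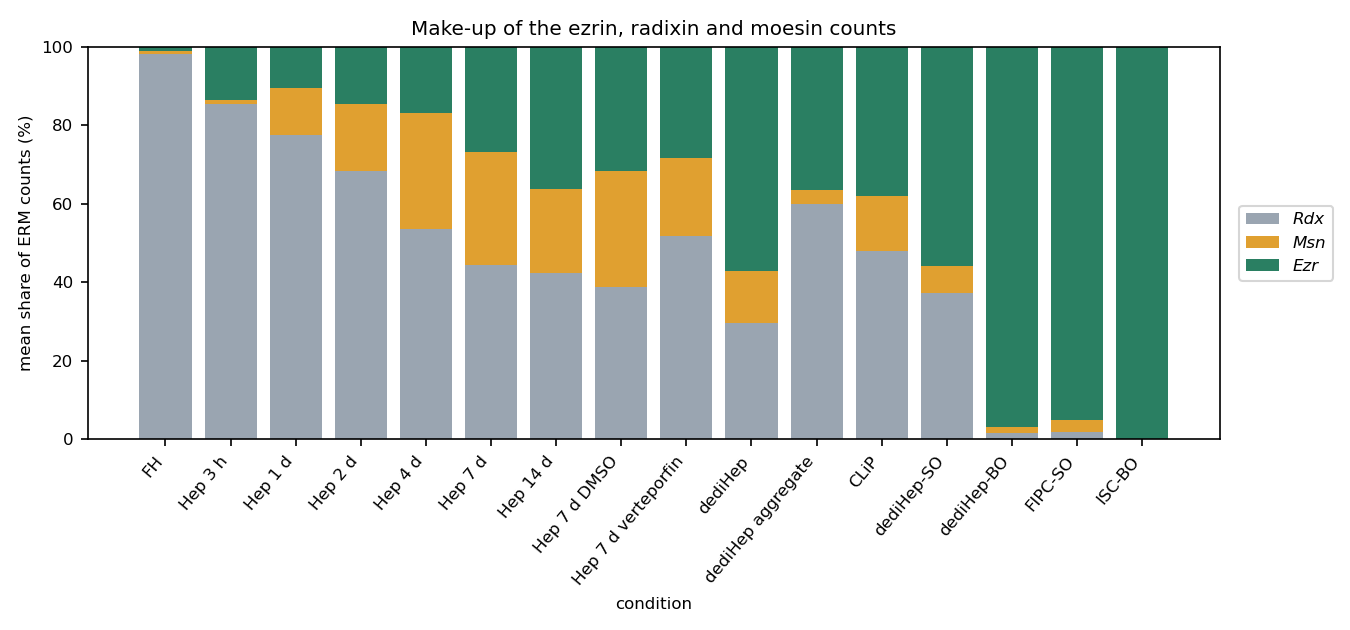
Mean share of each library's ezrin, radixin and moesin counts (%, vertical axis) that fell to Rdx, Msn and Ezr in the 16 conditions (bars stack to 100%). Rdx holds nearly all in FH, the Rdx share is lower at each later time up to 14 d (42.5%), and Ezr holds over 95% in the budding organoids and FIPC-SO.

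The make-up of the ERM family was worked out after the levels had been seen. Radixin, Rdx, is the third member, and shares are of UMI counts at the 3′ end, with no division by length. In FH, Rdx had 98.3 ± 0.539% (SD, n = 3) of the ERM counts, Ezr 0.905 ± 0.329% and Msn 0.752%. The Rdx share was 85.5% at 3 h, 77.5% at 1 d, 53.6% at 4 d and 42.5% at 14 d, while Msn went from 1.1% at 3 h to 29.7% at 4 d and 21.3% at 14 d and Ezr reached 36.2%. dediHep had 57.1 ± 8.52% Ezr (n = 5) and 29.6 ± 10.3% Rdx, and aggregates 36.4% Ezr and 59.9 ± 11.7% Rdx.

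The level of Rdx itself did not fall by the test in monolayer, since no change against FH (1161 ± 336.7 CPM) passed the fold threshold. It was lower at 3 h, with 490.1 ± 146.7 CPM (log2 fold change -1.27, edgeR FDR 0.03195). At 7 d Rdx stood at 665 ± 240.8 CPM (-0.87, edgeR FDR 0.06301) and at 14 d at 1005 ± 251.3 CPM (-0.22, FDR 0.6419). The dediHep level was 466.1 ± 176.9 CPM (-1.44, edgeR FDR 0.01029). In dediHep-BO Rdx fell to 6.546 ± 3.151 CPM from 436.4 ± 159.7 CPM in dediHep-SO (-6.00, edgeR FDR 3.538e-05). Ezr then made up 96.9 ± 1.73% of ERM counts in dediHep-BO, 95.1% in FIPC-SO and 99.9% in ISC-BO, and 55.7% in dediHep-SO. In these 3 conditions both Msn and Rdx were low, so the share moved with their levels while Ezr was 396.3 ± 57.59 CPM in dediHep-BO against 631.7 ± 136.7 CPM in dediHep-SO (edgeR FDR 0.0693). Among the cytoplasmic actins, Actg1 had 16.8 ± 13.7% of the Actb and Actg1 counts in FH, 51 ± 5.81% at 3 h, 43.2% in dediHep and 17.9 ± 0.59% in aggregates.

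Other cytoskeleton genes were taken from 11 lists of 109 further genes, 107 of them in the table. At 14 d 36 of the 88 tested rose against FH and 6 fell, where 14.1% of all genes rose and 15.3% fell, with a median log2 fold change of 1.58. Both further tropomyosins that were called, Tpm4 (4.24, edgeR FDR 8.806e-08) and Tpm2 (5.59, FDR 5.688e-06), rose, as did the calponin Cnn2 (6.67, from 2.78 ± 0.7383 to 289.9 ± 17.1 CPM). Of the 13 focal adhesion genes 5 rose, Tes (5.90) and Pdlim7 (5.74) among them, and Csrp2 fell (-2.61). Of the 26 genes of actin turnover and bundling 10 rose, with the thymosin Tmsb10 (5.38) and the capping protein Capg (4.91), and the leukocyte plastin Lcp1 fell (-4.79, from 215 ± 48.87 to 7.623 ± 1.674 CPM). Among 8 ERM genes and partners 3 rose: the hyaluronan receptor Cd44 (5.59, from 20.96 ± 18.49 to 1012 ± 247.4 CPM), the endocytic Ehd4 (4.33) and podocalyxin, Podxl (2.78). Acta2, the smooth muscle actin, rose from 0.7866 to 96.89 ± 63.04 CPM (6.81, edgeR FDR 0.0001624). It is also on the stellate and fibroblast list.

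At 3 h 3 of these 88 genes rose and 5 fell, near the background of 3.06% and 3.85% of all genes. Cd44 fell (-4.64, edgeR FDR 0.0006169), from 20.96 ± 18.49 to 0.7549 ± 0.6544 CPM, while its partner Ezr rose. The myosin light chain Myl12a (3.19), the small GTPase Rhob (2.75) and profilin, Pfn1 (2.23), rose with Actg1.

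In dediHep against FH, 24 of 86 rose and 4 fell, where 13.1% of all genes rose and 12.6% fell. Of the 5 tested genes for other intermediate filaments none was called, beside 4 of 5 at 14 d, and no test compared those counts. The sets tested were not the same. Prph, called at 14 d, was not tested in dediHep, where it lay at 10.61 ± 13.49 CPM against 0 in FH, and Synm was tested instead. Galectins went in both directions: Lgals3 rose (5.68), Lgals2 was at 308 ± 243.8 CPM in dediHep and 0 in FH, and Lgals8 fell (-3.15). The microvillus proteins Vil1 (173.6 ± 93.95 CPM) and Pls1 (140.4 ± 127.5 CPM) were at 0 in FH.

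In aggregates none of 85 rose and 8 fell relative to dediHep, where 4.39% of all genes rose and 5.11% fell. They included Tpm4 (-2.01) and Tpm2 (-3.09), 2 of the 3 other tropomyosins, with Flnc (-3.67), Cnn2 (-2.89), Nes (-3.22), Lmnb1 (-2.51), Tmsb4x (-3.98) and anillin, Anln (-5.60), a protein of the cell division ring. From dediHep-SO to dediHep-BO 9 of 85 fell and 2 rose (5.68% and 5.6% of all genes), and 3 of the 9 were ERM genes or partners: Rdx, Slc9a3r2 (-3.53) and Podxl (-3.40). Of the 84 genes tested with verteporfin none was called.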

How the data were processed

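Bulk RNA of 49 mouse libraries was profiled by CEL-Seq2. The authors demultiplexed the reads, aligned them and counted unique molecular identifiers per gene, and deposited 1 table of raw UMI counts. Per the labels' processing notes the tools were bcl2fastq 2.20, Bowtie2 2.3.1 and HTSeq 0.6.0 with the build GRCm38, and the annotation and strand setting of the counting are not given in the sources used here. UMIs of 6 bases allow 4096 values, so counts near that number (the highest was 4096) are too low.

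Of 46078 Ensembl identifiers 45143 (98%) matched a symbol. Genes were tested in R 4.3.3 with the quasi-likelihood test of edgeR 4.0.16 (TMM factors, filterByExpr with a minimum count of 10 and a total of 15), and were called where the FDR was under 0.1 and the fitted log2 change exceeded 2 in either direction. FH and the 6 time points were fitted together, and the other comparisons as pairs of groups, 17 comparisons in all. Fold values are ratios of mean CPM, and log2 values come from the fit. Standard errors are the log2 fold change divided by the root of F. Counting intervals are exact conditional intervals of pooled counts and cover counting error only, as does the floor of 3 counts. Alternatives were RLE factors, DESeq2 1.42.0, no filter, a minimum count of 30, a UMI saturation correction, a fit of all libraries, a replicate or culture block, a stricter FDR with a smaller fold (0.05 and a log2 change of 1), and leaving out each library. The edgeR fit was tested on simulated data for dediHep against FH and for verteporfin against DMSO. Same-group libraries differed by more than sampling noise (54 pairs, chi-square per degree of freedom 6.29 to 74.5). Aggregates and SOs share culture labels with dediHeps, and their deviations correlated at 0.169 to 0.323 and at -0.435 to 0.0185, in 3 pairs each. Positions are those of GRCm38 with GENCODE M21, and promoter windows those of RefSeq GRCm38.p6. The 10 genes and the lists were chosen with earlier results of these data known. Only some of the called genes of the lists were named, not always those with the largest changes, and some were named after their values were seen. Some genes of the lists are not reported here.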

Additional observations from a re-analysis of the deposited data

Results flagged for a closer look

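In groups of 4 or 5 libraries, each gene's highest or lowest library was compared with the nearest other, over 19 groups of values, and chance flags about 1 in 20 such groups. Vim stood out in dediHep replicate 1, with 564.9 CPM against 233.7 CPM in the next library, a gap of 0.759 of the group's range where 0.71 is the limit. The aggregate grown from that culture had the lowest Vim of the 3 aggregates (8.078 CPM), and Msn (403.2 CPM), Actn1 (893.2 CPM) and Tpm1 (397.7 CPM) also had their highest dediHep level in that replicate. Ezr was highest there too, while Lgals1 (94.52 CPM) and Tagln2 had their lowest dediHep level in it. Tagln stood out in ISC-BO replicate 4 with 0.437 CPM, which is 1 count, where the other 3 libraries had 0. With the others at 0 any count would have been flagged, so the rate of 1 in 20 does not hold there.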

How the results depend on the processing

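Alternatives moved counts more than directions. Of the single gene values, 1261 kept direction and side of the threshold under the settings other than leaving out 1 library, 24 gained and 10 lost a call, and 4 changed sign. With 1 library left out the numbers were 952, 10, 27 and 38. Vim in FH rests on 3 counts and Tagln on 225 counts in all 49 libraries. The causes of the changes below were not tested.

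With an FDR under 0.05 and a log2 change over 1, genes of the 10 called were 5 for aggregates against dediHep, 1 for dediHep against Hep 14 d, 4 for dediHep-SO against FIPC-SO and 2 for dediHep-SO against dediHep. The UMI correction gave 4 for aggregates against dediHep. Both the fit of all 49 libraries and no filter gave 1 for dediHep against Hep 14 d and 1 for dediHep-BO against ISC-BO. Leaving out 1 library gave 1 to 3 for aggregates against dediHep, 0 to 1 for dediHep against Hep 14 d, 2 to 4 for dediHep-BO against dediHep-SO and 1 to 3 for dediHep-SO against FIPC-SO. Without dediHep-BO replicates 1 and 2, chosen after seeing the data, a single BO library was left, and counts of called genes are not given.

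With the replicate block, dediHep-BO against dediHep-SO had 2 called. The culture block for aggregates against dediHep had 3, with Flna at -2.03 (edgeR FDR 0.00404). Outside the comparisons with shared culture labels the numbers met no rule for pairing. The block took Tagln at 14 d to 1.81 (edgeR FDR 0.0657). With verteporfin and DMSO (2 pairs, r 0.293), Vim was at -1.18 (edgeR FDR 0.000868).

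Of the other cytoskeleton genes, the looser fold called 2 for CLiP, 41 at 1 d, 52 at 4 d, 63 at 7 d, 65 at 14 d, 26 for aggregates against FH, 15 against dediHep, 46 for dediHep against FH, 19 against Hep 14 d, 8 for dediHep-BO against ISC-BO, 27 against dediHep-SO, 17 for dediHep-SO against FIPC-SO and 13 against dediHep. No filter gave 9 for CLiP, 19 for dediHep against Hep 14 d, 7 for dediHep-BO against ISC-BO, 18 against dediHep-SO and 13 for dediHep-SO against dediHep. All 49 libraries gave 10 for CLiP, 16 for dediHep against Hep 14 d and 5 for dediHep-BO against ISC-BO. DESeq2 gave 8 for CLiP and the replicate block 2 for dediHep-BO against ISC-BO. Without Hep 14 d replicates 1 and 2 a single library of that time was left, and the count for dediHep against Hep 14 d is not given. Leaving out 1 library gave 2 to 6 for CLiP, 5 to 9 for aggregates against dediHep and 1 to 4 for dediHep-BO against ISC-BO. The median correlation of the 10 genes was 0.662 without FH and the intestinal organoids.

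Signs changed only among values that were not called, with 1 library left out. Actg1 ran from -0.172 to 0.613 for Hep 14 d against Hep 1 d, -0.443 to 0.144 with verteporfin, -0.0921 to 0.715 for dediHep against Hep 14 d and -0.423 to 0.0732 for dediHep-SO against FIPC-SO. Actn1 ran from -0.418 to 0.049 for CLiP, -0.0562 to 0.161 for dediHep-BO against ISC-BO and -0.0112 to 0.252 against dediHep-SO. Ezr ran from -0.35 to 0.167 with verteporfin, -0.0725 to 0.129 for dediHep against Hep 14 d, -0.328 to 0.114 for dediHep-BO against ISC-BO and -0.117 to 0.424 for dediHep-SO against FIPC-SO. For CLiP, Lgals1 ran from -0.414 to 0.988, Msn from -0.308 to 0.425, Tpm1 from -0.478 to 0.15 and Vim from -0.46 to 0.351. With verteporfin, Flna ran from -0.306 to 0.363 and Tagln2 from -0.00576 to 0.318. Tpm1 ran from -0.024 to 0.23 for dediHep-BO against ISC-BO. Against FH, Lgals1 ran from -0.265 to 1.09 at 3 h and -0.505 to 0.849 at 1 d, Vim from -0.271 to 4.64 at 3 h and Tagln from -1.39 to 0.269 at 4 d. Without Hep 14 d replicates 1 and 2, dediHep against Hep 14 d was -0.476 for Actg1 and -0.0328 for Ezr. Without dediHep-BO replicates 1 and 2, Actn1 was -0.218 against ISC-BO and -0.161 against dediHep-SO.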
